A study of Mus musculus with 24 samples.

Results

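The 10 genes described here are the sirtuins Sirt1 to Sirt7, the NAD-forming enzymes Nampt and Nmrk2, and the NAD-cleaving enzyme Cd38. They were picked by gene symbol, with earlier results of these data known. Each symbol matched a single row among the 55401 genes of the count table. Their levels were compared between 3 tissues, between old and young mice within a tissue, and between the sexes. Libraries of total RNA, with ribosomal RNA removed, came from 8 mice of the inbred strain C57BL6/J, each giving heart (left ventricle), kidney and skeletal muscle. Of the mice 4 were aged 16.5 weeks and 4 were aged 86 weeks, and each age had 2 of either sex, so that the 24 libraries form 6 groups of 4. No genotype or treatment is named for any group. Replicates carry the mouse numbers. The young females were 14 and 15, and the young males 19 and 20. The old females were 11 and 12, and the old males 14 and 17. The number 14 names a different mouse at each age. Which skeletal muscle was taken, which part of the kidney, and at what hour the tissues were collected is not given in the sources used here.

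NAD is a coenzyme of energy metabolism that is also used up by enzymes. Sirtuins are such enzymes: they remove acetyl and other acyl groups from proteins and split NAD in doing so, releasing nicotinamide. Sirt1, Sirt6 and Sirt7 act mainly in the nucleus, Sirt2 mainly in the cytoplasm, and Sirt3, Sirt4 and Sirt5 in mitochondria. Nampt starts the recycling of nicotinamide to NAD, Nmrk2 makes the NAD precursor NMN from nicotinamide riboside and is known from striated muscle, and Cd38 is a membrane enzyme that degrades NAD.

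Total counts ran from 52.6 to 103.8 M per library. In skeletal muscle the females (83.0 to 103.8 M) were all sequenced more deeply than the males (59.1 to 71.0 M). Each tissue showed its own markers, and 2 traces matter below. In skeletal muscle the summed level of 8 left ventricle markers was 22 to 33.1 CPM (counts scaled to library size after normalisation) in 7 libraries and 537 CPM in 86-week replicate 17. The summed level of 8 kidney markers reached 125 CPM in the muscle of 16.5-week replicate 19, a male. The other male muscle libraries had 20.6, 20.8 and 42.1 CPM, and the females 22.7 to 24.4 CPM. In bulk tissue a lower count of cells of a type and less RNA per cell cannot be told apart.

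The tissue set the level of most of these genes. Between left ventricle and kidney 8 of the 10 genes passed the test (4 higher and 4 lower in ventricle), where 33.6% of the 46984 genes tested did. Between skeletal muscle and kidney 9 passed (2 higher and 7 lower in muscle; 43.5% of all genes). Between ventricle and muscle 8 passed (6 higher and 2 lower in ventricle; 26.6% of all genes). The ranges of the 8 libraries did not overlap for 6, 7 and 6 of the 10 genes in these comparisons, as for 19.1%, 21.2% and 13.9% of all genes. The test was edgeR's quasi-likelihood test on the counts of all 24 libraries, with Benjamini-Hochberg adjusted p-values over all genes and a threshold of 0.05. Values below are CPM on 1 scale for all 24 libraries, changes are log2 changes with their SE, and n is 8 libraries per tissue unless given. Comparisons of tissues depend on the scaling. The median log2 change of all genes was 0.10 for ventricle against kidney, 0.23 for muscle against kidney and -0.12 for ventricle against muscle. With library totals in place of normalisation these were -0.17, -0.35 and 0.20. The split of the calls then became 1 higher and 8 lower for muscle against kidney and 8 higher and 1 lower for ventricle against muscle. With RLE size factors the latter was 7 and 1.

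**Figure D1:**
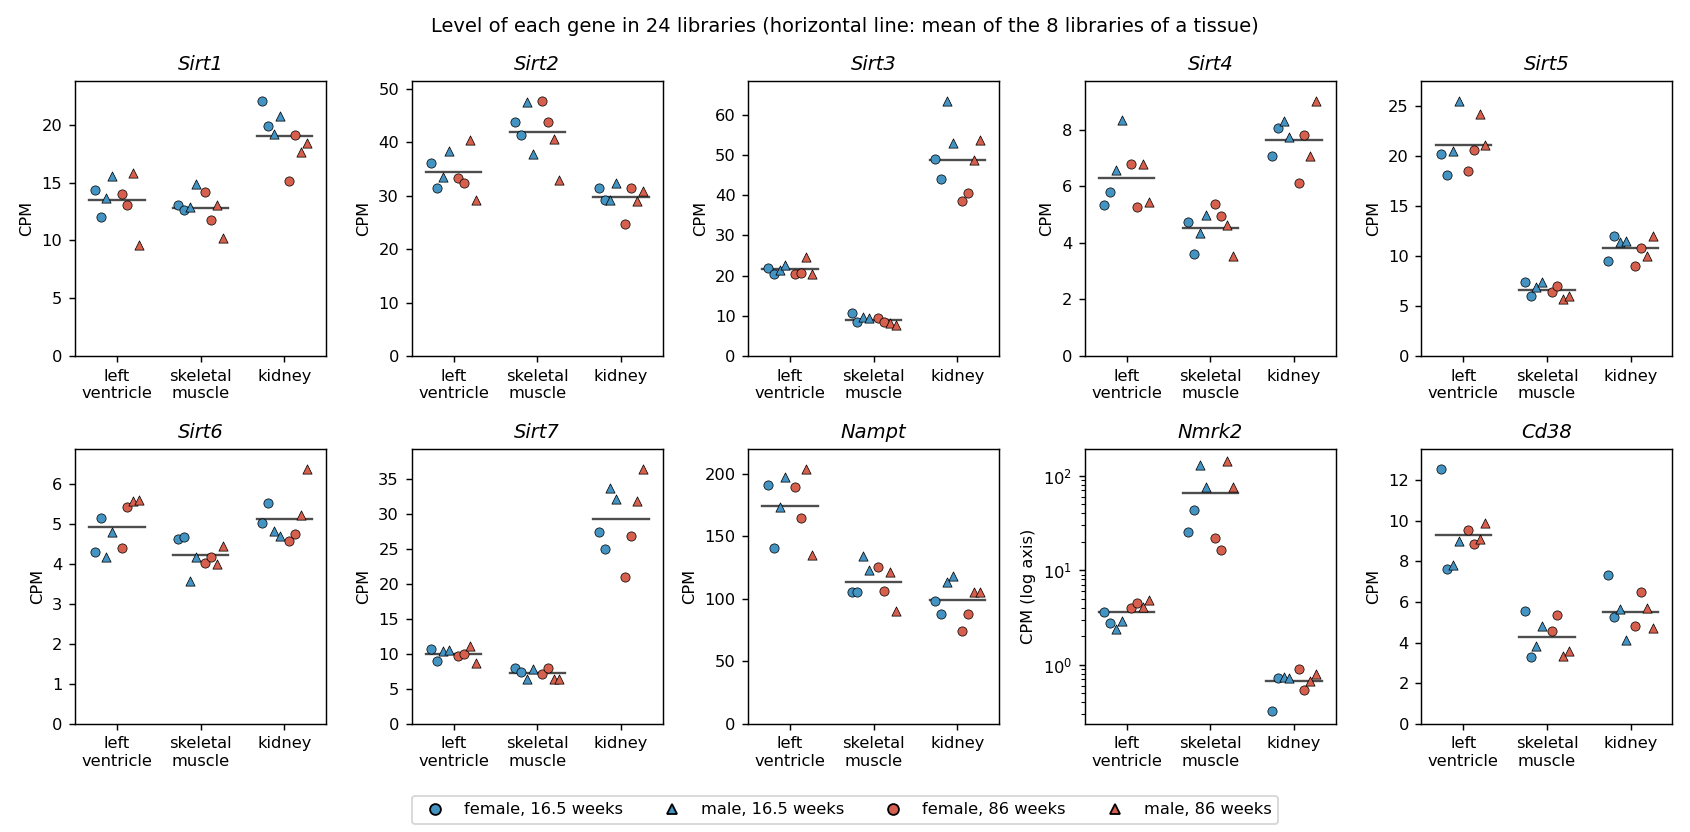
Level of each of the 10 genes in CPM (y axis; logarithmic for Nmrk2, from 0 for the others) by tissue (x axis). Each point is 1 library, circles are females, triangles males, blue is 16.5 weeks and red 86 weeks, and the line is the mean of the 8 libraries of a tissue. Sirt3 and Sirt7 are highest in kidney, Sirt5, Nampt and Cd38 in ventricle, and Nmrk2 in skeletal muscle.

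Nampt, the enzyme that sets the pace of NAD recycling, lies on the plus strand (chr12:32819545-32853349, GRCm38). It was the most abundant of the 10 genes per kilobase of exon in ventricle and kidney. In left ventricle its lowest, median and highest levels were 135, 181 and 204 CPM (mean 174 ± 25.8, SD). In skeletal muscle they were 89.9, 114 and 134 CPM, and in kidney 74.0, 102 and 118 CPM. Every ventricle library was above every library of the other tissues. The level in ventricle was 1.53-fold that in muscle (log2 change 0.62 ± 0.10, edgeR adjusted p = 1.36e-05) and 1.78-fold that in kidney (0.83 ± 0.10, adjusted p = 8.01e-08). Muscle and kidney overlapped. The difference there (0.22 ± 0.10, edgeR adjusted p = 0.0811) did not pass, and it turned to -0.39 without normalisation (adjusted p = 1.16e-06). It passed without 86-week replicate 17 (0.28, edgeR adjusted p = 0.00920) and with a filter of 1 CPM in 4 libraries (0.42, adjusted p = 3.44e-05).

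Nmrk2, the muscle kinase of nicotinamide riboside, lies on the minus strand (chr10:81198170-81202051, GRCm38; 7 exons). It showed the widest spread of the 10 genes between tissues. Skeletal muscle held 16.4 CPM in the lowest library, 59.4 at the median and 142 in the highest. Left ventricle held 2.36, 3.83 and 4.83 CPM, and kidney 0.320, 0.721 and 0.894 CPM. None of the 3 ranges overlapped. The fitted level in muscle was 14.8-fold that in ventricle (log2 change of ventricle against muscle -3.89 ± 0.18, edgeR adjusted p = 1.27e-15). Against kidney it was 78.9-fold higher (6.30 ± 0.21, adjusted p = 2.26e-19), but kidney is close to the floor of the assay. There Nmrk2 had 27 to 81 counts per library and 0.364 CPM per kilobase of exon, 1.5 times the 95th percentile of 1100 olfactory receptor genes, which these tissues are not expected to use. For the other members this ratio was 3.22 or more in all 3 tissues. Of the exon length of Nmrk2, 14.6% is shared with the antisense gene Atcayos, and the strand setting of the counting is not stated. Atcayos was at 51.0 CPM in muscle, 38.6 CPM in ventricle and 1.42 CPM in kidney.

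Nampt and Nmrk2 offer alternative entries to NAD, and their balance differed between tissues. Per kilobase of exon, the ratio of Nampt to Nmrk2 had a median of 18.5 in ventricle (10.2 to 27.0) and 57.4 in kidney (30.4 to 112). In skeletal muscle the median was 0.742 and the range 0.313 to 2.38. The sexes stood apart there: the median was 1.80 (0.894 to 2.38) in females and 0.408 (0.313 to 0.590) in males. The paralog Nmrk1, with the same activity, was instead highest in kidney: 3.72 CPM in ventricle, 4.35 in muscle and 39.4 in kidney. Per kilobase, Nmrk2 was 29.4 times Nmrk1 in muscle at the median, 1.93 times in ventricle and 0.0345 times in kidney. By sex the median in muscle was 11.1 times in females (8.31 to 24.4) and 45.4 times in males (34.5 to 53.5).

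The 250 bases upstream of the RefSeq start sites are shown for Nmrk2 and Nampt, whose tissue patterns differ, and for Sirt1, the sirtuin whose window holds E-boxes. Capitals mark matches, on either strand, to CACGTG and CAGCTG (E-boxes, the first of which clock proteins are known to bind), TATAAA (the TATA box), GGGCGG (the GC box) and AAGGTCA (a nuclear receptor half-site). The sequences are from RefSeq (GRCm38.p6), written 5′ to 3′ on the strand of the gene.
Nmrk2, chr10:81202038-81202287, minus strand: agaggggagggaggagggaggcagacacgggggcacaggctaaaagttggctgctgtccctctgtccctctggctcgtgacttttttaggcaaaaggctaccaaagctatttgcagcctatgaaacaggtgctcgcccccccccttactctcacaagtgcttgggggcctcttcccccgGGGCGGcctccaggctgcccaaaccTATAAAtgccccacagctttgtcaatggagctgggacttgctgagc
Nampt, chr12:32820085-32820334, plus strand: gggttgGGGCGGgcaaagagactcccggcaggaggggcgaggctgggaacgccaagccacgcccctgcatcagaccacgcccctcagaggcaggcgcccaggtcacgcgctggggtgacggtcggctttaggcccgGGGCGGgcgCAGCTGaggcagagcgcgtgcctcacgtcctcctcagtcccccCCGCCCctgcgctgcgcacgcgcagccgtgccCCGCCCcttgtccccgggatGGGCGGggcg
Sirt1, chr10:63339036-63339285, minus strand: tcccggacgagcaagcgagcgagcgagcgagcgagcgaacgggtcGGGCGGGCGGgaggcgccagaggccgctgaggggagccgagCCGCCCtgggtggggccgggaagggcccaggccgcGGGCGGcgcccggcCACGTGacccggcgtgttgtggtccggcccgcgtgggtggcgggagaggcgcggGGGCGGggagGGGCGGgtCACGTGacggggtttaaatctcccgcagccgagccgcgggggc

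The Nmrk2 window holds 1 TATAAA, found in 12.4% of 32851 promoter windows of the same length, and 1 GGGCGG, found in 32.7%. The Nampt window holds 5 GGGCGG and 1 CAGCTG (13% of windows) and no TATAAA. The Sirt1 window holds 2 CACGTG, found in 6.02% of windows, and 6 GGGCGG, of which 2 overlap each other. No other member's window holds CACGTG or TATAAA, and the half-site AAGGTCA, in 4.08% of windows, occurs once, in that of Sirt5. All 10 genes matched the RefSeq table, in which Sirt3 and Sirt6 have 2 start sites each. A match describes letters in a window and no binding was measured here.

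Cd38 (plus strand, chr5:43868553-43912375) was highest in ventricle. Its lowest, median and highest levels were 7.64, 9.04 and 12.5 CPM in left ventricle, 3.27, 4.21 and 5.56 CPM in muscle, and 4.12, 5.45 and 7.35 CPM in kidney. All ventricle libraries were above all others. Ventricle was 2.17-fold above muscle (1.12 ± 0.13, edgeR adjusted p = 8.05e-08) and 1.69-fold above kidney (0.76 ± 0.13, adjusted p = 2.09e-05). Muscle and kidney overlapped, and the call between them (-0.36 ± 0.13, edgeR adjusted p = 0.0274) was lost with 3 of the 8 mice left out in turn, 86-week replicates 14 and 17 and 16.5-week replicate 19, with adjusted p up to 0.131. It was also lost with a filter of 1 CPM in 4 libraries (-0.15, edgeR adjusted p = 0.280) and in the libraries of either age alone (adjusted p = 0.193 at 16.5 and 0.0603 at 86 weeks). Cd38 is made by endothelial and immune cells, among others. The summed level of 8 endothelial markers had the same order as Cd38: medians of 856 CPM in ventricle, 377 in kidney and 198 in muscle. Summed macrophage markers were also highest in ventricle, with medians of 188.44 CPM there, 109.36 in muscle and 104.21 in kidney. Summed B and plasma cell markers had another order, with medians of 14.5 CPM in ventricle, 64.2 in kidney and 96.9 in muscle. Summed T and NK cell markers were highest in kidney, with medians of 8.67 CPM in ventricle, 10.7 in kidney and 7.65 in muscle. The part of any of these cells in the level of Cd38 was not tested.

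Among the mitochondrial sirtuins, Sirt3 and Sirt5 had different tissue orders. Sirt3, the main mitochondrial deacetylase (minus strand, chr7:140863666-140882309), had lowest, median and highest levels of 38.5, 48.8 and 63.3 CPM in kidney, 20.3, 20.9 and 24.6 CPM in ventricle, and 7.75, 8.97 and 10.8 CPM in muscle. The 3 tissues did not overlap. Ventricle was lower than kidney by 2.25-fold (-1.17 ± 0.07, edgeR adjusted p = 2.58e-13) and muscle lower than kidney by 5.37-fold (-2.43 ± 0.08, adjusted p = 7.02e-20). Sirt3 shares exon bases with Ric8a (7.0% of its exon length) and Psmd13 (5.73%) on the opposite strand. Their levels differed less between tissues: 15.7, 14.2 and 21.6 CPM for Ric8a and 44.1, 54.2 and 50.8 CPM for Psmd13 in ventricle, muscle and kidney.

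Sirt5, which removes succinyl and malonyl groups (plus strand, chr13:43365496-43395203), was instead highest in ventricle. Levels were 18.1, 20.5 and 25.5 CPM in ventricle (lowest, median, highest), 9.02, 11.1 and 12 CPM in kidney, and 5.66, 6.64 and 7.43 CPM in muscle, again with no overlap. Ventricle was 1.95-fold above kidney (0.97 ± 0.08, edgeR adjusted p = 1.83e-10) and 3.19-fold above muscle (1.67 ± 0.09, adjusted p = 7.51e-15). Sirt4, a mitochondrial sirtuin with weak deacetylase activity (minus strand, chr5:115478010-115484725), ran from 5.25 to 8.34 CPM in ventricle, from 3.53 to 5.37 in muscle and from 6.10 to 8.99 in kidney. Muscle was lower than kidney (-0.76 ± 0.11, edgeR adjusted p = 1.79e-06) without overlap. Ventricle and kidney overlapped, and their difference (-0.28 ± 0.11, edgeR adjusted p = 0.0449) kept its call only without 86-week replicate 11 and without 16.5-week replicate 20, 2 of 8 fits that left out a mouse. DESeq2 (adjusted p = 0.0881), RLE size factors (0.0968), a filter of 1 CPM in 4 libraries (-0.18, 0.0858), no filter (0.0836) and the libraries of either age alone (0.123 and 0.0870) lost it as well.

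Of the nuclear sirtuins, Sirt7 differed most. Sirt7, which is found in the nucleolus (minus strand, chr11:120618372-120625240), had 21.1, 29.6 and 36.4 CPM in kidney (lowest, median, highest), 8.67, 10.2 and 11.2 CPM in ventricle, and 6.42, 7.34 and 8.02 CPM in muscle. No range overlapped another. Ventricle was lower than kidney by 2.89-fold (-1.53 ± 0.08, edgeR adjusted p = 7.37e-15) and muscle by 4.02-fold (-2.01 ± 0.08, adjusted p = 2.33e-17). Sirt1, the best known nuclear deacetylase of the family (minus strand, chr10:63319005-63381704), was at 19 ± 2.08 CPM in kidney, 13.5 ± 2.02 in ventricle and 12.8 ± 1.42 in muscle (SD). Kidney was above ventricle (-0.49 ± 0.10 for ventricle, edgeR adjusted p = 1.73e-04) and above muscle (-0.56 ± 0.10 for muscle, adjusted p = 2.36e-05). Ventricle and muscle did not differ detectably, with an interval of -0.12 to 0.28, but without normalisation ventricle was higher (0.39, adjusted p = 1.80e-05). Sirt6, a chromatin deacylase (minus strand, chr10:81621785-81627797), was at 4.94 ± 0.588, 4.22 ± 0.365 and 5.13 ± 0.590 CPM in ventricle, muscle and kidney. Of the 3 comparisons, muscle against kidney passed (-0.28 ± 0.10, edgeR adjusted p = 0.0179). That call was lost with a filter of 1 CPM in 4 libraries (-0.07, adjusted p = 0.510) and in the libraries of either age alone (adjusted p = 0.135 at 16.5 and 0.107 at 86 weeks). Ventricle against muscle passed with RLE size factors (0.28, edgeR adjusted p = 0.0461), DESeq2, no filter and no normalisation, and ventricle against kidney passed without normalisation (-0.33, adjusted p = 0.0257).

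Sirt2, the cytoplasmic tubulin deacetylase (plus strand, chr7:28766735-28788661), was at 34.4 ± 3.73 CPM in ventricle, 41.9 ± 4.94 in muscle and 29.7 ± 2.39 in kidney (SD). Muscle was above kidney (0.49 ± 0.09, edgeR adjusted p = 2.52e-05) and above ventricle (-0.29 ± 0.09 for ventricle, adjusted p = 0.0122), but without normalisation both signs turned, to -0.11 and 0.03. The call of ventricle against muscle was also lost without 86-week replicate 12 (edgeR adjusted p = 0.0528) and without 16.5-week replicate 19 (adjusted p = 0.116). DESeq2 (adjusted p = 0.143), RLE size factors (0.167), no filter (0.0694) and the 86-week libraries alone (0.123) lost it too. Ventricle against kidney (0.21 ± 0.09, adjusted p = 0.0644) passed without 86-week replicate 17 (adjusted p = 0.0103), with a filter of 1 CPM in 4 libraries (0.31, adjusted p = 1.09e-04) and with no filter (adjusted p = 0.0365).

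Levels of different genes were compared per kilobase of exon. In left ventricle Sirt2 led the sirtuins with 6.82 ± 0.741 CPM per kilobase (SD), followed by Sirt3 (3.60 ± 0.250) and Sirt5 (3.46 ± 0.420), whose ranges overlapped. Then came Sirt4, Sirt1, Sirt7 and Sirt6, each overlapping its neighbour. In skeletal muscle Sirt2 was at 8.33 ± 0.980 and made up 45.8% of the sirtuin sum. Sirt1 followed at 2.41 ± 0.266, and Sirt5 was last at 1.082 ± 0.112. In kidney Sirt3 led with 8.18 ± 1.34, above Sirt2 in all 8 libraries. Sirt2 (5.90 ± 0.475) and Sirt7 (5.70 ± 0.991) overlapped. Sirt3 thus made up 27.0% of the sirtuin sum in kidney, 15.9% in ventricle and 8.33% in muscle. The order depends on the length used. With the length of the longest transcript, Sirt2 still led in ventricle and muscle, Sirt5 moved to the second place in ventricle, and Sirt3 (15.2) and Sirt2 (14) overlapped in kidney.

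**Figure D2:**
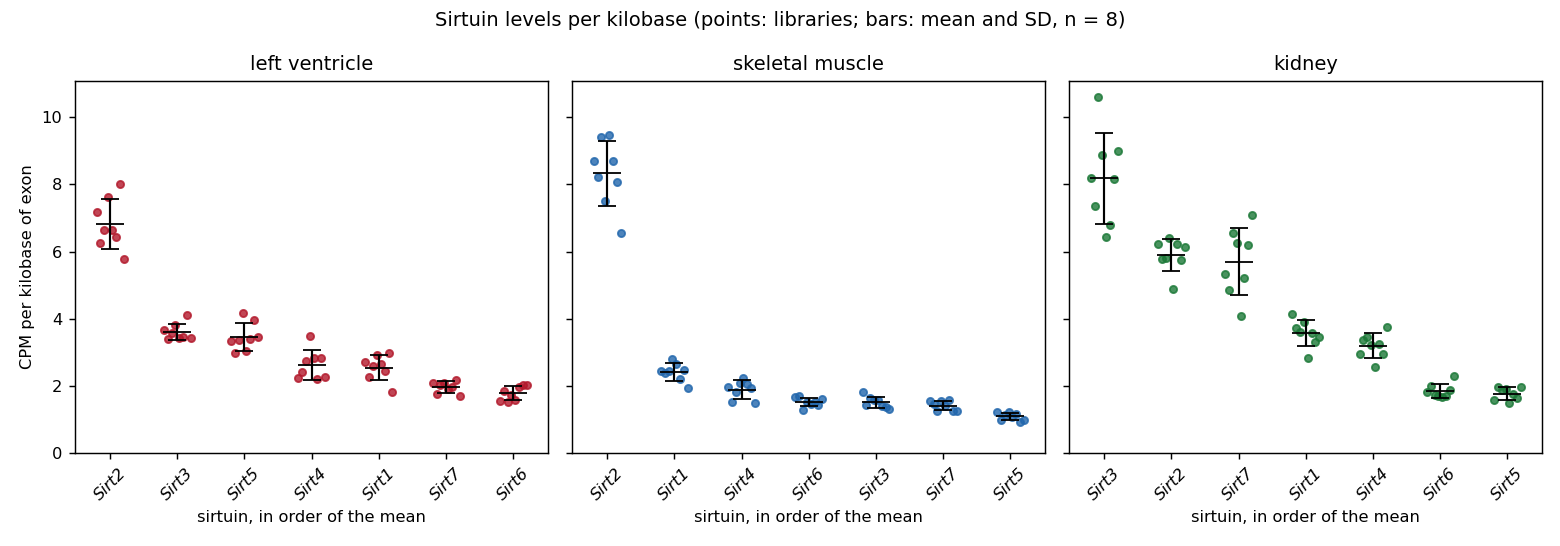
Sirtuin levels in CPM per kilobase of exon (y axis), a panel per tissue, with the genes of each panel in order of their mean (x axis). Points are the 8 libraries of a tissue and bars the mean and SD. Sirt2 leads in ventricle and muscle, and Sirt3 leads in kidney.

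The other NAD genes were described from lists of the pathway. Of all genes, 33.6% passed for ventricle against kidney, 43.5% for muscle against kidney and 26.6% for ventricle against muscle, in either direction. The counts of the lists were not tested against these shares. Genes that make NAD from tryptophan, a route known from liver and kidney, were far higher in kidney. Of 10 such genes 8 were lower in ventricle than in kidney and 1 was higher (median log2 change -3.46, all genes 0.10), and 8 were lower in muscle (median -3.41, all genes 0.23). Kmo, which hydroxylates kynurenine, was at 78.0 ± 11.4 CPM in kidney and 1.41 ± 0.250 in ventricle (SD). Haao, an oxygenase further down the route, was at 85.0 ± 22.7 and 1.82 ± 0.425 CPM, and Qprt, which makes the pyridine nucleotide from quinolinate, at 35.8 ± 6.61 and 1.31 ± 0.200 CPM. Acmsd, which diverts the route away from NAD, was at 56.2 ± 16 CPM in kidney and 0.625 ± 0.134 in ventricle.

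Of 12 salvage genes, a list that contains Nampt and Nmrk2, 5 were higher and 4 lower in ventricle than in kidney (median 0.17). In muscle 2 were higher and 4 lower than in kidney (median 0.03, all genes 0.23). The 4 genes higher in kidney than in both other tissues were Nmrk1, Pnp, which splits nucleosides, Nt5e, which acts on extracellular nucleotides, and Naprt, which uses nicotinic acid. Nt5e was at 74.7 ± 26.5 CPM in kidney, 17.4 ± 2.7 in ventricle and 4.95 ± 0.814 in muscle. Among 16 NAD consumers other than sirtuins, a list that contains Cd38, 7 were higher and 3 lower in ventricle than in kidney (median 0.18), and 6 were higher and 10 lower in muscle (median -0.53). The ADP-ribosyltransferases Art1 and Art3 marked both striated tissues: Art1 was at 64.2 CPM in ventricle, 135 in muscle and 1.07 in kidney, and Art3 at 112, 87.7 and 2.71 CPM.

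**Figure D3:**
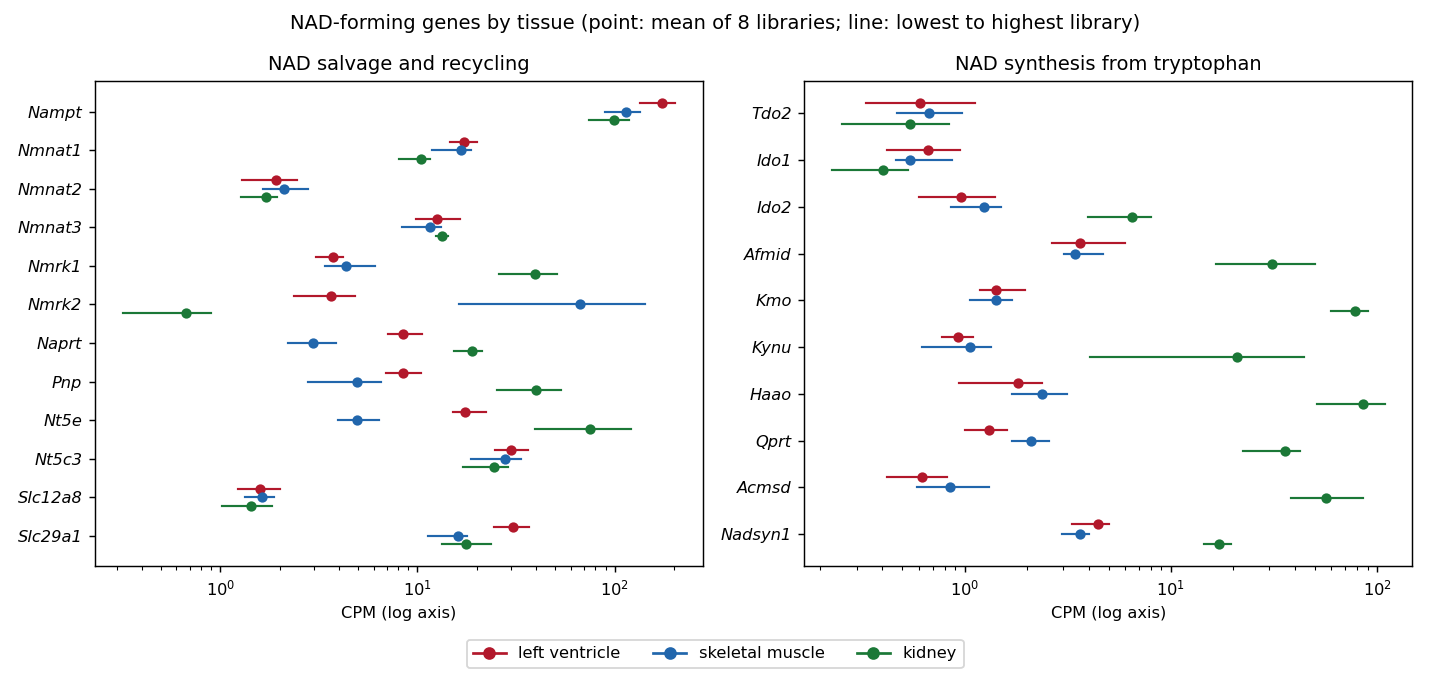
Levels of 12 genes of NAD salvage (left) and 10 genes of NAD synthesis from tryptophan (right) in CPM on a logarithmic x axis. Points are means of 8 libraries and lines run from the lowest to the highest library, with ventricle in red, muscle in blue and kidney in green. Nmrk2 is highest in muscle, and Kmo, Haao, Acmsd and Qprt are highest in kidney.

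Genes for 20 proteins known to be deacylated by sirtuins were mostly higher in ventricle than in muscle. Of the 20, 15 were higher and none lower (median 1.11, all genes -0.12), where 26.6% of all genes passed in either direction. Idh2, a target of Sirt3, was at 951 ± 131 CPM in ventricle, 38.5 ± 6.4 in muscle and 216 ± 29.98 in kidney. Of 8 rows for nicotinamide disposal and NADP formation (Nnt has 2), 5 were higher in ventricle than in muscle and none lower (median 0.54). Against kidney 4 rows were higher and 4 lower in ventricle, and 2 were higher and 6 lower in muscle. Of all genes 33.6% and 43.5% passed in these 2 comparisons with kidney.

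With age, none of the 10 genes passed the threshold in any tissue. By edgeR's quasi-likelihood test the share of all genes that passed was 0.0741% in ventricle, 0.0183% in muscle and 0.112% in kidney. DESeq2 and limma-voom also called none of the 10. At an unadjusted p under 0.05 there was 1 gene in ventricle (Nmrk2) and none in muscle or kidney. The median change of the 10 genes was -0.01 in ventricle, -0.05 in muscle and -0.03 in kidney. For the sirtuins the 95% intervals bound what could have been missed: they lay within -0.39 and 0.48 on the log2 scale in ventricle, -0.42 and 0.43 in muscle, and -0.38 and 0.36 in kidney. For Nampt the intervals were -0.31 to 0.27, -0.30 to 0.20 and -0.31 to 0.05 in the same order. An interval that holds 0 does not show that a level stayed the same.

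**Figure D4:**
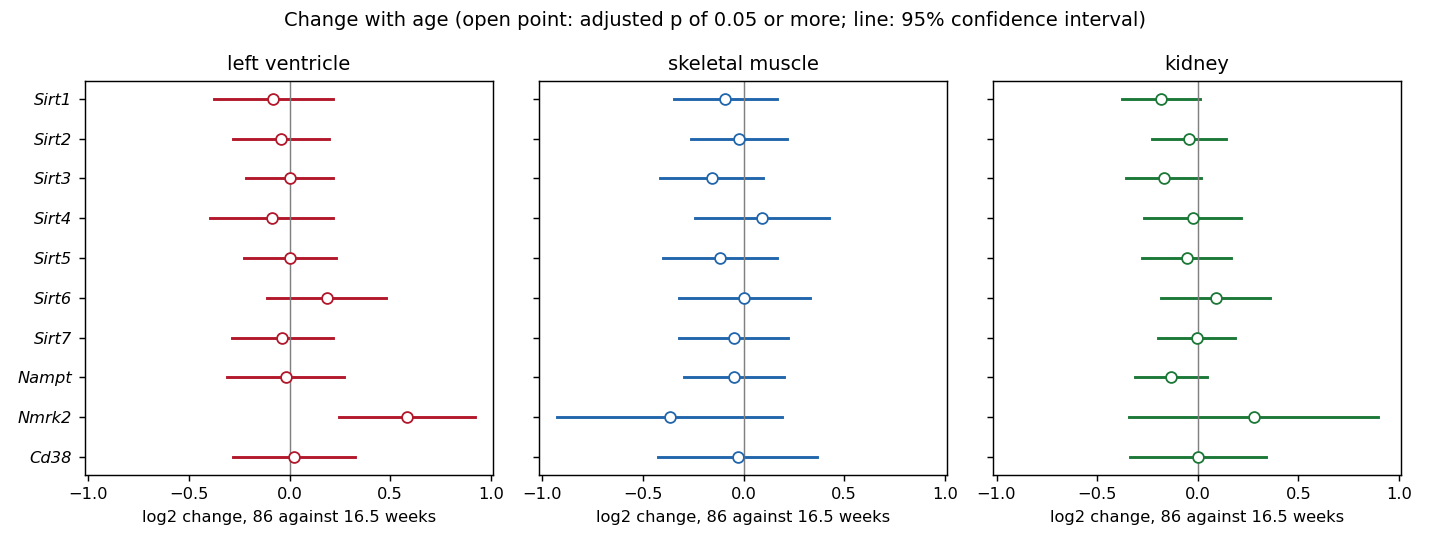
Log2 change from 16.5 to 86 weeks (x axis, positive is higher at 86 weeks) for the 10 genes (y axis) in each tissue, from 4 libraries per age. Points are estimates, lines 95% confidence intervals, and all points are open because no adjusted p is under 0.05. Of the 30 intervals, that of Nmrk2 in ventricle is the one that leaves out 0.

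Nmrk2 in left ventricle had the largest age difference of the 30. At 16.5 weeks the libraries had 3.65, 2.76, 2.36 and 2.92 CPM (replicates 14, 15, 19 and 20). At 86 weeks they had 4.02, 4.50, 4.08 and 4.83 CPM (replicates 11, 12, 14 and 17). All old libraries were above all young ones, and 2.11% of all genes had ages that did not overlap, in either direction. The log2 change was 0.58 ± 0.16 (1.5-fold), with an edgeR adjusted p of 0.521 (0.00196 before adjustment). Over the alternatives the adjusted p ranged from 0.251 to 1. In skeletal muscle the change was -0.37 ± 0.26 and in kidney 0.28 ± 0.29. A test over all 24 libraries asked if age acted alike in the 3 tissues. None of the 10 genes passed (0.0319% of all genes), and Nmrk2 had the smallest p (0.0261 before adjustment, 1 after). Atcayos, the antisense gene that shares 14.6% of the exon length of Nmrk2, spanned 31.6 to 46.3 CPM in ventricle over both ages together. Its levels by age are not given here, and its part in the Nmrk2 values was not tested.

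Genes of cardiac stress were read beside Nmrk2 in the ventricle. All 7 measured genes of the list had positive age changes (median 0.56, all genes 0.01), but none passed by edgeR, DESeq2 or limma-voom, and 4 had an unadjusted p under 0.05. Nppb, which encodes brain natriuretic peptide, was at 31.9 ± 6.05 CPM in young and 73.5 ± 49.8 in old ventricles (SD, n = 4; edgeR adjusted p = 0.430). Acta1, the skeletal actin, was at 79.6 ± 39.9 and 145 ± 40.5 CPM (adjusted p = 0.575). All 7 atrial markers had positive changes as well, with none past the threshold, and their summed level was 40.2 to 176 CPM in young and 31.6 to 231 CPM in old ventricles. Their part in these values was not tested.

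Among the sirtuins, Sirt1 in kidney had groups that did not overlap. It was at 22, 19.9, 19.2 and 20.7 CPM at 16.5 weeks and 15.1, 19.1, 17.7 and 18.5 CPM at 86 weeks, so that the highest old library lay just under the lowest young one. The change was -0.18 ± 0.09 (edgeR adjusted p = 0.655), and 3.52% of all genes had groups that did not overlap. Sirt3 in kidney was at 48.9, 43.9, 63.3 and 53.1 CPM at 16.5 weeks and 38.5, 40.6, 48.8 and 53.8 CPM at 86 weeks (-0.17 ± 0.09, adjusted p = 0.671).

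Cd38, often discussed as an NAD consumer of old tissue, showed no detectable age change. Its log2 changes were 0.02 ± 0.14 in ventricle, -0.03 ± 0.18 in muscle and 0.00 ± 0.16 in kidney. The intervals ran from -0.28 to 0.33, from -0.42 to 0.37 and from -0.33 to 0.34. Markers of the immune cells that can carry Cd38 are given beside it. All 10 macrophage markers had positive changes in kidney (median 0.64) and in muscle (median 0.42), with none past the threshold by edgeR or limma-voom and 3 past it in kidney by DESeq2. Summed B and plasma cell markers were 10.9 to 13.6 CPM in young and 15.5 to 19.2 CPM in old ventricles. In kidney they were 12.5 to 70.8 CPM and 64.1 to 392 CPM, and in muscle 23.4 to 133 CPM and 81.7 to 159 CPM. Of these 10 markers Ighg2c, an immunoglobulin heavy chain, rose with age in ventricle (1.77 ± 0.18, edgeR adjusted p = 1.43e-04) and in muscle (1.80 ± 0.22, adjusted p = 0.0314, kept in 4 of 8 fits that left out a mouse), and none passed in kidney. No marker was at 0. Their part in the level of Cd38 was not tested.

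Of the wider NAD lists, a single gene passed with age. Afmid, the formamidase of the tryptophan route, fell in kidney from 37.1 ± 13.1 to 24.9 ± 9.57 CPM (SD, n = 4; -0.54 ± 0.09, edgeR adjusted p = 0.0337). It kept its call in 1 of the 8 fits that left out a mouse, and the groups overlapped. The lists for salvage, other NAD consumers, nicotinamide disposal, deacylated proteins and clock genes had none past the threshold in any tissue. The age change did not differ between the sexes for any of the 10 genes by edgeR (0.0157% of all genes passed in ventricle, 0% in muscle and 0.0247% in kidney). At an unadjusted p under 0.05 this was 1 gene in muscle, Nmrk2, and none elsewhere, and DESeq2 and limma-voom called none.

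The clearest difference within a tissue was between the sexes, in Nmrk2 of skeletal muscle. Females had 25.7 and 43.3 CPM at 16.5 weeks (replicates 14 and 15) and 21.8 and 16.4 CPM at 86 weeks (replicates 11 and 12). Males had 130 and 76.7 CPM at 16.5 weeks (replicates 19 and 20) and 142 and 75.5 CPM at 86 weeks (replicates 14 and 17). Every male was above every female (5.91% of all genes had sexes that did not overlap, in either direction), and the males at each age split into a high and a lower library. Males were 4.24-fold above females (2.08 ± 0.27, edgeR adjusted p = 0.00183), the only call among the 10 genes in muscle, where 1.36% of all genes passed. All 8 fits that left out a mouse and all 9 other settings kept the call. The interaction of age and sex for Nmrk2 in muscle was 1.02 ± 0.44, with an edgeR adjusted p of 0.735 (0.0387 before adjustment).

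The sex difference of Nmrk2 differed between the tissues. In ventricle females had 3.73 ± 0.735 and males 3.55 ± 1.12 CPM (SD, n = 4; log2 change -0.13 ± 0.16), and in kidney the change was 0.22 ± 0.29. A test of whether the sex difference differed between tissues passed for Nmrk2 (edgeR adjusted p = 4.56e-04) and for no other member, where 1.88% of all genes passed. With mouse as a replicate block the adjusted p was 9.86e-04. In the 16.5-week libraries alone it was 0.109, and in the 86-week libraries alone 0.00278. The test was added after the muscle values had been seen.

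Other measures of the muscle libraries are given by sex. Males were sequenced less deeply, as given above. The summed level of 6 slow fibre markers was 37.5 to 53.3 CPM in females and 51.8 to 187 CPM in males, with a slight overlap. The highest was 86-week replicate 17, the library with the trace of heart, and the other males had 51.8, 52.2 and 78.0 CPM. In left ventricle the same markers had a mean sum of 16339 CPM. Summed skeletal muscle markers ran from 183480 to 193950 CPM in females and from 135090 to 210730 CPM in males, a range that takes in all the females. The antisense Atcayos had 49.3 ± 7.08 CPM in females and 52.7 ± 15.5 in males (SD, n = 4), and its sexes overlapped. By sex 1.36% of all genes passed in muscle. Of 15 clock genes 1 was higher and 1 lower in males: Ciart (1.38 ± 0.29, edgeR adjusted p = 0.0280) and Nfil3, lower in males (-0.90 ± 0.15, adjusted p = 0.00841). Their part in the Nmrk2 difference was not tested. Nmrk2 kept its call without 86-week replicate 17, the library with the trace of heart (2.14, edgeR adjusted p = 0.0108). It also kept its call without 16.5-week replicate 19, the library with the trace of kidney (2.03, edgeR adjusted p = 0.00876).

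**Figure D5:**
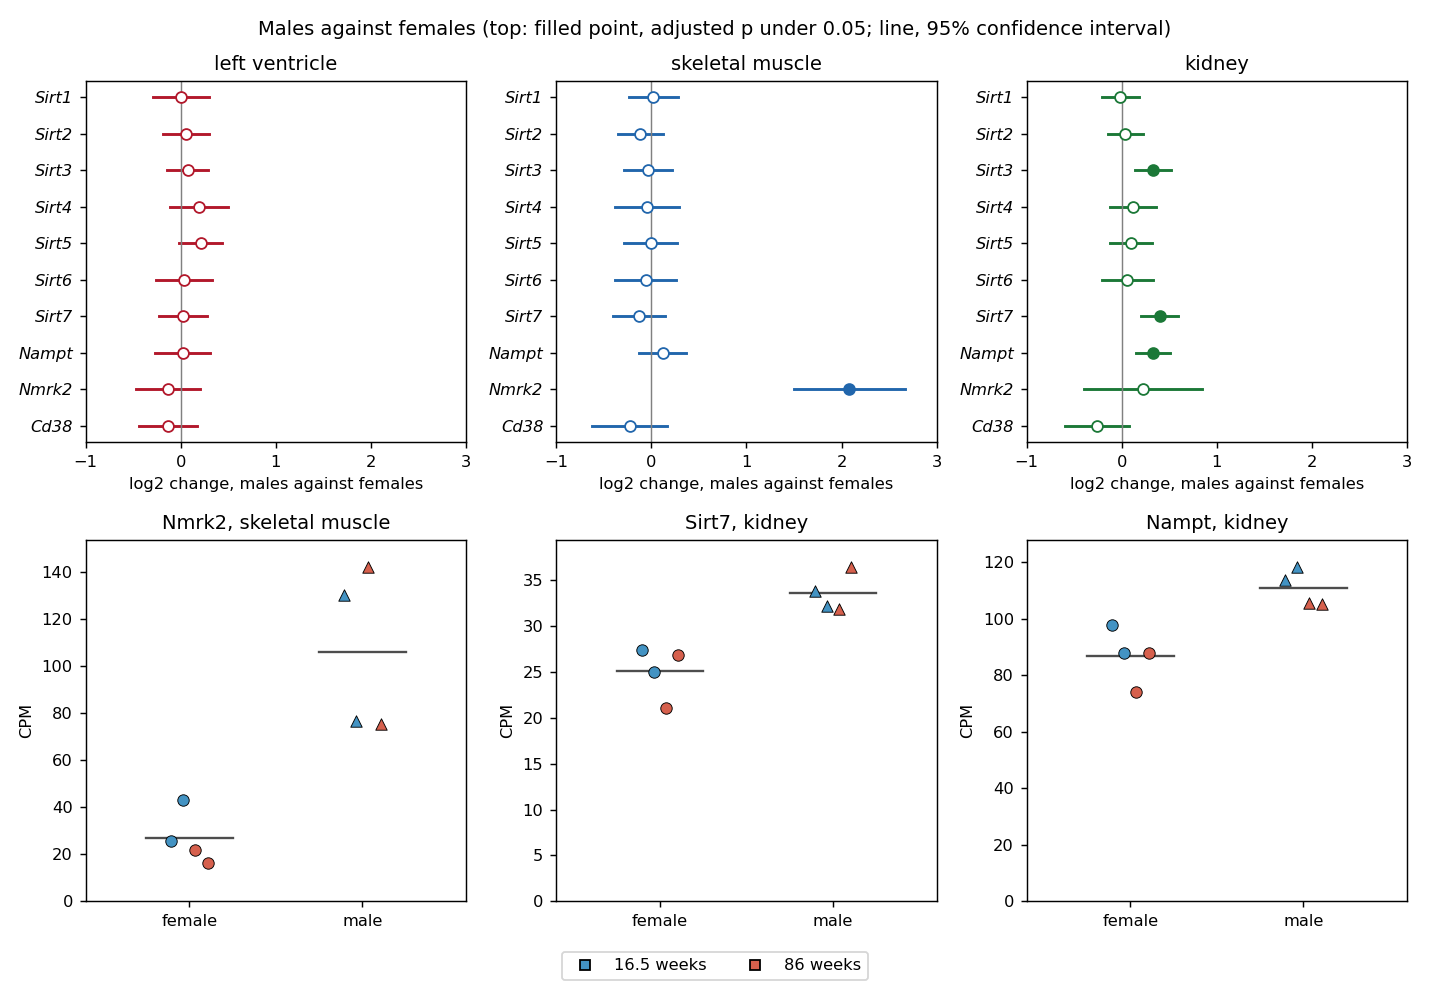
Top, log2 change of males against females (x axis) for the 10 genes (y axis) in each tissue, with 95% confidence intervals; filled points have an adjusted p under 0.05. Bottom, CPM (y axis, from 0) of Nmrk2 in skeletal muscle and of Sirt7 and Nampt in kidney for 4 females and 4 males (x axis), blue for 16.5 and red for 86 weeks, with group means as lines. Nmrk2 spans 16.4 to 43.3 CPM in females and 75.5 to 142 CPM in males.

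In kidney 3 of the 10 genes were higher in males and none lower, where 3.77% of all genes were higher and 7.58% passed in either direction. Sirt7 was at 27.4, 25, 21.1 and 26.8 CPM in females (replicates 14 and 15 at 16.5 weeks, 11 and 12 at 86 weeks). In males it was at 33.8, 32.2, 31.9 and 36.4 CPM (replicates 19 and 20, then 14 and 17). The sexes did not overlap (0.40 ± 0.09, 1.32-fold, edgeR adjusted p = 0.0115), and the call held in all 8 fits that left out a mouse. Nampt was at 97.9, 87.9, 74.0 and 88.0 CPM in females and 114, 118, 106 and 105 CPM in males, without overlap. Its change was 0.33 ± 0.08 (1.26-fold, edgeR adjusted p = 0.0255), and 4 of the 8 fits kept the call. Sirt3 was at 48.9, 43.9, 38.5 and 40.6 CPM in females and 63.3, 53.1, 48.8 and 53.8 CPM in males, where 1 male lay just under the highest female. Its change was 0.33 ± 0.09 (1.25-fold, adjusted p = 0.0342) and was kept in 2 of 8. Psmd13, which shares 5.73% of the exon length of Sirt3 on the opposite strand, also differed by sex in kidney. It was at 43.7 ± 7.24 CPM in females and 57.9 ± 3.39 in males (SD, n = 4), without overlap. Ric8a, which shares exon bases with Sirt3 as well, was at 21.6 CPM in either sex. Their part in the Sirt3 difference was not tested.

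The calls of Nampt and Sirt3 in kidney were thus easily lost, while their estimates moved less. With a mouse left out, the log2 change ran from 0.30 to 0.36 for Nampt and from 0.27 to 0.38 for Sirt3. Without 86-week replicate 14, 16.5-week replicate 15 or 16.5-week replicate 19, only Sirt7 passed, as with RLE size factors and without age in the fit. Nampt was also lost in the fit of all 24 libraries (edgeR adjusted p = 0.204), and Sirt3 without normalisation (adjusted p = 0.0562). Non-overlapping sexes were found for 10.2% of all genes in kidney. In left ventricle none of the 10 genes differed by sex (0.871% of all genes passed by edgeR, none of the 10 at an unadjusted p under 0.05, and none by DESeq2 or limma-voom).

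Other genes of the NAD pathway also differed by sex in kidney, where 7.58% of all genes passed. The shares of the lists given here are descriptions and were not tested against that share. Of 10 tryptophan route genes 4 were higher and 1 lower in males (median 0.29, all genes -0.02). Kynu, kynureninase, was at 36.4 ± 6.06 CPM in females and 5.49 ± 1.29 in males (SD, n = 4; -2.76 ± 0.16, edgeR adjusted p = 5.09e-08). Afmid was higher in males, at 40.6 ± 9.26 against 21.4 ± 5.47 CPM (0.90 ± 0.09, adjusted p = 1.20e-05), as was Haao, at 105 ± 6.50 against 65.0 ± 10.1 CPM. Ido2 (0.54 ± 0.13) and Qprt (0.40 ± 0.11) were higher too. Of the 12 salvage genes, Nampt and Nmrk2 included, 3 were higher and 1 lower in males. Besides Nampt these were Nt5e and Nt5c3, nucleotidases known to act on NMN among other substrates, and Slc29a1, a nucleoside carrier, which was lower. Among 16 NAD consumers 2 were higher and 3 lower. Parp10, a mono-ADP-ribosyltransferase, was at 19.4 ± 2.05 CPM in females and 36.4 ± 4.09 in males (0.88 ± 0.11, edgeR adjusted p = 8.86e-05). Parp3 was higher, and Art4, Parp14 and Parp2 were lower.

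Of 8 rows for nicotinamide disposal and NADP formation, 3 were higher in males, led by Nudt12, an NAD(H) pyrophosphatase, at 63.1 ± 6.19 against 34.7 ± 5.28 CPM (SD, n = 4). The NAD kinases Nadk and Nadk2 were the others. Among genes for 20 proteins deacylated by sirtuins, 2 were higher and 3 lower in male kidney. Acss1, a mitochondrial acetyl-CoA synthetase and target of Sirt3, was lower in males (-0.91 ± 0.10). Acss2, the acetyl-CoA synthetase of the cytoplasm and a target of Sirt1, was higher (1.10 ± 0.09). Hadha was lower (-0.52 ± 0.09) and Mlycd higher (0.48 ± 0.09).

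Clock genes differed by sex in the same kidneys. Nampt is known as an output of the clock. Of 15 clock genes 6 were higher in males and none lower (median 0.41). Of all genes 3.77% were higher and 7.58% passed in either direction. The clock output gene Tef was at 172 ± 59.4 CPM in males and 76.9 ± 12.9 in females (SD, n = 4), Per2 at 26.2 ± 9.21 and 11.8 ± 1.89 CPM, and Dbp at 28.1 ± 20.4 and 6.32 ± 2.42 CPM. The others were Ciart, Per3 and Nr1d1. In left ventricle, where 0.871% of all genes passed, Dbp and Ciart were higher in males (2.26 ± 0.45 and 1.58 ± 0.33, edgeR adjusted p = 0.0199 and 0.0291). The sex change of Nampt in ventricle was 0.02 ± 0.14 and did not pass. The part of the clock genes in the sex differences was not tested, and the hour of collection is not given in the sources used here.

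The genes whose levels followed a member most closely within tissues were ranked by Pearson's r of log2 CPM after each tissue's mean was taken away. These values are descriptions over libraries that share tissue, mice and depth. Differences of age and sex within a tissue were kept in, so that they add to r. For Nampt, over 24 libraries and 8223 protein-coding genes of at least 5 CPM in each tissue, they were Kpna4 (0.917), Rsph3b (0.915) and Rora (0.908). For Nmrk2, over the 16 libraries of ventricle and muscle, they were Lpin2 (0.907), St3gal5 (0.876) and Plekho1 (0.860). In muscle alone, where Nmrk2 differed by sex, their r was 0.956, 0.889 and 0.867. In ventricle alone it was 0.531, 0.737 and 0.873. For Cd38 the closest were Cd200 (0.762), Cyp26b1 (0.739) and Ttyh3 (0.710). In ventricle alone r was 0.668, 0.825 and 0.185 for these genes. It was 0.862, 0.632 and 0.794 in muscle and 0.714, 0.792 and 0.932 in kidney.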

How the data were processed

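Gene counts (whole numbers) were deposited by the authors as 1 table of 24 libraries. Per the submitters' processing notes, the tools were STAR 2.7.6a, an aligner, and StringTie 2.1.1, a quantifier, and the genome build was GRCm38.p6. Libraries were made with a ribosomal RNA depletion kit, per the labels' protocols. The annotation and the strand setting are not given in the sources used here. Of the gene identifiers 54349 matched GENCODE M21, which gave coordinates and exon lengths.

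Tests used edgeR 4.0.16 (R 4.3.3): quasi-likelihood F-tests with TMM normalisation and filterByExpr, fitted on all genes and adjusted by Benjamini-Hochberg (threshold 0.05, two-sided). Age and sex were terms of 1 fit per tissue of 8 libraries. Tissues, age by tissue and sex by tissue came from a fit of all 24 libraries. Alternatives were DESeq2 1.42.0, limma-voom (limma 3.58.1), other size factors (RLE), a filter of 1 CPM in 4 libraries or none, a fit without the genes of the mitochondrial genome, a fit without the covariate, the 24 libraries fitted together, mouse as a replicate block, either age alone, each mouse left out, and, chosen after seeing the data, library totals without normalisation and the test of sex by tissue. The tests were tested on simulated data. The members and the gene lists were chosen with earlier results of these data known. All 10 members are named. Of each list up to 6 genes past the threshold with the smallest p are named, or up to 2 as values. A gene of the list of deacylated proteins is not reported here. Overlapping genes such as Atcayos were chosen once their values were known.

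Mouse names recur in all 3 tissues and mark the same animal. Over 11510 genes, deviations of the same mouse in 2 tissues had a median correlation of 0.0462 (24 pairs, -0.18 to 0.277). For different mice it was -0.0136 (168 pairs, -0.238 to 0.243). The correlation was above 0.1 in 9 of the 24 pairs and in 17 of the 168. P-values measure the spread between mice of a group. All per-sample columns of the table were used.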

Additional observations from a re-analysis of the deposited data

Results flagged for a closer look

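Of 60 groups of 4 libraries (10 genes, 3 tissues, 2 ages), 3 had a single library far from the others, where chance gives about 1 in 20. Nmrk2 in kidney was lowest in 16.5-week replicate 14, at 0.320 CPM, where the highest of the group was 0.731 CPM; the level is close to the floor of the assay. Sirt3 in left ventricle was highest in 86-week replicate 14, at 24.6 CPM, with a lowest value of 20.5 CPM in the group. Sirt6 in left ventricle was lowest in 86-week replicate 11, at 4.41 CPM, where the highest was 5.62 CPM. The sex difference of Nmrk2 differed between the tissues (edgeR adjusted p = 4.56e-04).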

How the results depend on the processing

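Over the values of single genes under settings other than leaving out a mouse, 1178 kept their side of the threshold, 25 lost and 10 gained a call, and 3 turned their sign with a call in 1 of the fits. Those 3 came from library totals without normalisation: Nampt (-0.388) and Sirt2 (-0.105) in muscle against kidney, and Sirt2 in ventricle against muscle (0.0289). With a mouse left out, 1097 kept their side, 21 lost and 2 gained a call. In all, 180 of 2007 values changed sign where they passed in neither fit. The count of members that differed by sex in kidney, 3, became 1 with RLE size factors and 1 without a covariate, and ran from 1 to 3 with a mouse left out. For ventricle against muscle it fell from 8 to 5 in the 86-week libraries alone. For sex by tissue it rose from 1 to 2 with a filter of 1 CPM in 4 libraries, where Sirt7 was added (adjusted p = 0.0114), and was 0 in the 16.5-week libraries alone; the cause was not tested.

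With mouse as a replicate block the counts of members called were 8, 9 and 8 for ventricle against kidney, muscle against kidney and ventricle against muscle, as without it, and no call of a member changed. No paired analysis of age or sex within a tissue was possible because the groups hold different mice. Counts over all genes moved by more than 1.5 times: for age from 33 to between 18 and 117 in ventricle, from 8 to between 0 and 90 in muscle, and from 50 to between 0 and 238 in kidney. For sex they moved from 388 to between 18 and 725 in ventricle and from 594 to between 297 and 1091 in muscle. The count was 15 (4 to 52) for age by tissue and 882 (266 to 1761) for sex by tissue, and for age by sex 7 (1 to 33) in ventricle, 0 (0 to 64) in muscle and 11 (1 to 34) in kidney. Depth limits Nmrk2 in kidney, with 27 to 81 counts, and 4 mice per group limit changes below about the widths of the intervals given.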
